A study of Homo sapiens with 9 samples.

Results

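SKOV3 cells given the acetylated 4-deoxy analog of N-acetylglucosamine, called Ac-4-deoxy-GlcNAc, were compared directly with SKOV3 cells given peracetylated N-acetylglucosamine of the natural configuration (Ac-GlcNAc). The comparison used the 3 arrays titled for each compound, 6 of the 9 arrays in the series, and all 14413 of 17859 probe sets annotated to exactly 1 gene. These probe sets stood for 14215 genes. Arrays were taken by their titles and probe sets by their annotation, and the comparison itself was picked with earlier results of these data known. This was the 1 pair of compounds compared.

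SKOV3 is an established human ovarian tumour cell line. Cells were grown in McCoy's 5A medium with fetal bovine serum, and total RNA came from 3 flasks without a compound, 3 flasks with 50 µM Ac-GlcNAc and 3 flasks with 50 µM Ac-4-deoxy-GlcNAc. Growth lasted 3 days, and the labels do not say for how much of it the compounds were present. The flasks were separate cultures of 1 cell line, and the label of the control names no vehicle, so the p-values measure the spread between flasks only. The compounds differ in the hydroxyl group at carbon 4 of the sugar ring, which the analog lacks. They therefore also differ in the number of acetyl groups, 4 on Ac-GlcNAc and 3 on the analog per the protocols, and the effects of these differences cannot be told apart.

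Acetyl groups mask the hydroxyls of a sugar and let it cross the cell membrane, after which cellular esterases remove them. Free GlcNAc is phosphorylated by the kinase NAGK and can enter the pool of UDP-GlcNAc, the donor for N-glycans, mucin-type glycans, heparan sulfate, hyaluronan and the O-GlcNAc mark on intracellular proteins. Many of these chains are extended through the carbon 4 hydroxyl of GlcNAc, and a 4-deoxy sugar offers no attachment point there.

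Values are log2 expression levels per probe set and array, so a difference of 1 is a 2-fold difference. Array medians lay between 6.581 and 6.655, and the SD over probe sets between 1.92, on untreated replicate 2, and 2.18. Of 13 measured ovarian tumour and epithelial markers 0 were called between the compounds (2.34% of all genes), and 2 were called lower with array weights. Their mean level was 8.919, 8.845 and 8.794 with Ac-GlcNAc and 8.678, 8.788 and 8.779 with the analog, without overlap. Taken singly, 5 of the 13 did not overlap, against 21.2% of all genes. The keratin KRT7 came nearest to the threshold (-0.47, adjusted p = 0.0574). The transcription factor PAX8 stood at 10.64 to 10.75 with Ac-GlcNAc and 10.73 to 10.84 with Ac-4-deoxy-GlcNAc. The mean level over 11 blood and immune markers was 4.949 to 5.331 and over 8 endothelial markers 4.811 to 5.138. The files hold no detection call, so these levels do not show whether such transcripts were present. The mean over 9 fibroblast markers was 5.529 to 5.641 with Ac-GlcNAc and 5.468 to 5.495 with Ac-4-deoxy-GlcNAc. Of these markers, 4 had higher and 5 lower point values with the analog, with a median of -0.0127. COL1A1, the 1 member called lower (1.58% of all genes), is in the matrix gene list too, so the lists are not independent. The part of the other markers in the matrix gene results was not tested.

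Between the compounds, 341 of the 14413 probe sets of 1 gene (2.37%) differed at an adjusted p under 0.05 (limma, two-sided, Benjamini-Hochberg over all 17859 probe sets). With the analog, 113 of them were higher (0.784%) and 228 lower (1.58%), and 137 (0.951%) differed by at least 1.5-fold. Counted by gene, 333 of 14215 (2.34%) differed, 108 higher (0.76%) and 225 lower (1.58%). The arrays of the compounds did not overlap on any of the 341 probe sets, and they did not overlap on 21.2% of all 14413. The 95% interval of the difference lay within 1.5-fold in either direction for 13216 probe sets (91.7%), with a median standard error of 0.109. In bulk RNA, a change in the share of cells that make a transcript and a change in the transcript per cell cannot be told apart.

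The size of the count rested on single arrays. Dropping replicate 1, 2 or 3 of Ac-GlcNAc gave 112, 131 and 129 calls, and dropping replicate 1, 2 or 3 of the analog gave 107, 377 and 156. It was 533 without untreated replicate 2, whose values enter the pooled spread, and 275 without both that array and replicate 1 of the analog. In any setting tried, 0 of the 341 changed sign. Leaving out arrays could not have turned a sign, since the arrays of the compounds did not overlap on these probe sets. Of the 333 genes, 78 were called in each of the 6 fits that left out 1 treated array (26 higher and 52 lower), and 48 in 0 of them. For each gene below, the number of these 6 fits in which it was called is given where it was under 6, except among the very large proteins.

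**Figure D1:**
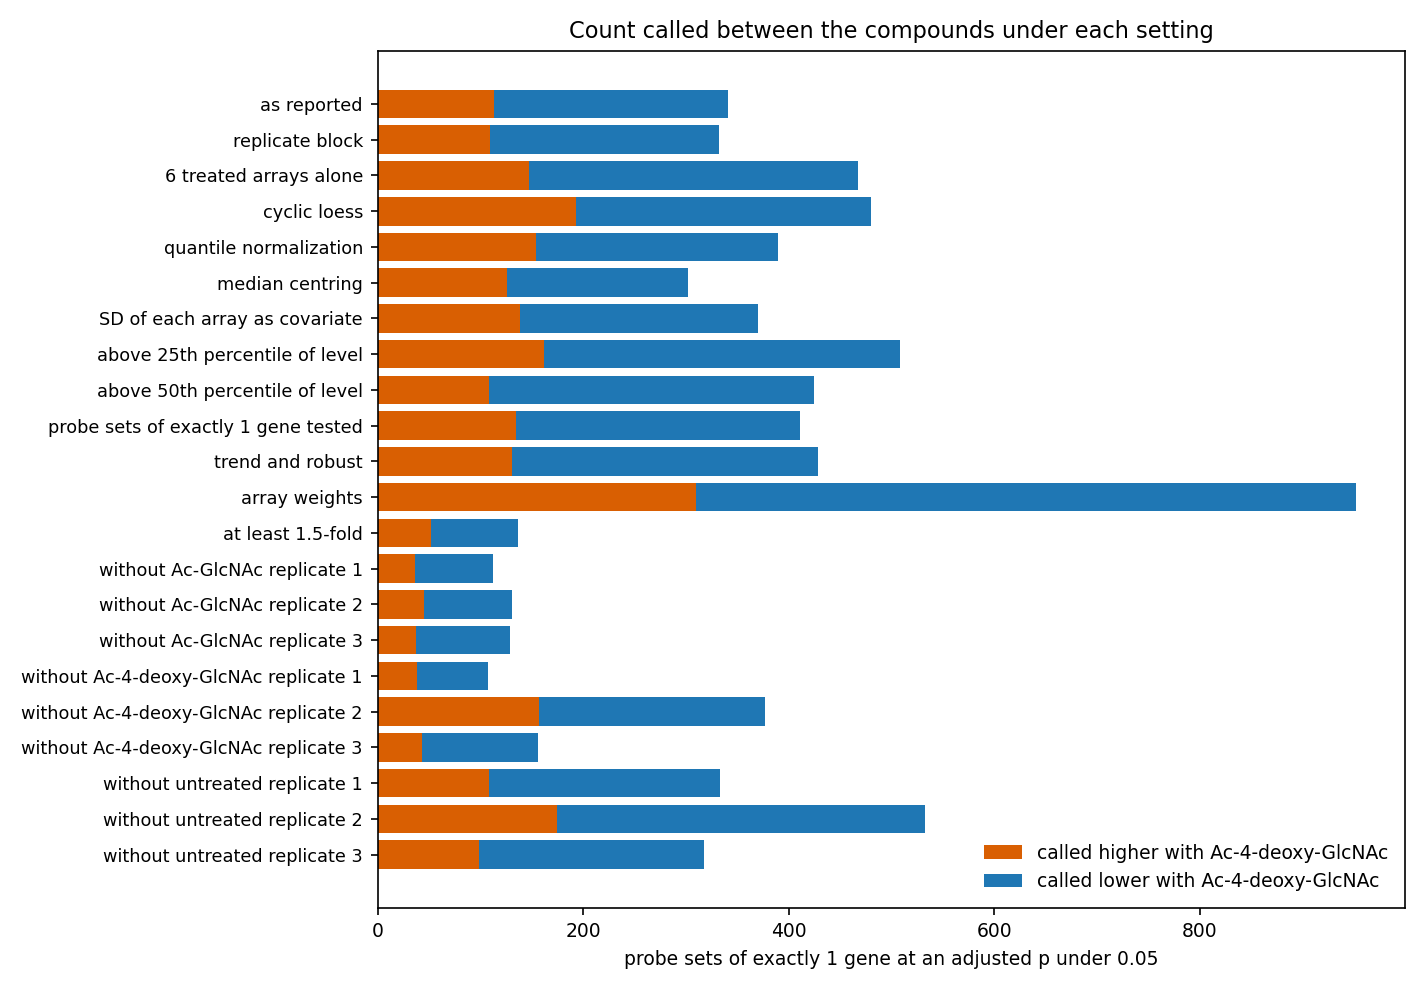
Number of probe sets of exactly 1 gene at an adjusted p under 0.05 between the compounds (horizontal axis) as reported and under each other setting (rows), split into those called higher (orange) and lower (blue) with Ac-4-deoxy-GlcNAc. Calls lower with the analog outnumber calls higher in every setting, and the count runs from 107 without Ac-4-deoxy-GlcNAc replicate 1 to 952 with array weights.

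Calls were spread unevenly over the range of levels. Of 3416 probe sets with a mean level of at most 4.886, 4 were called, each higher with the analog. Between 4.886 and 6.627, 110 of 3582 were called, between 6.629 and 8.456, 146 of 3676, and from 8.457 upward, 81 of 3739. In these 3 upper ranges the lower calls outnumbered the higher ones, by 67 to 43, 106 to 40 and 55 to 26.

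**Figure D2:**
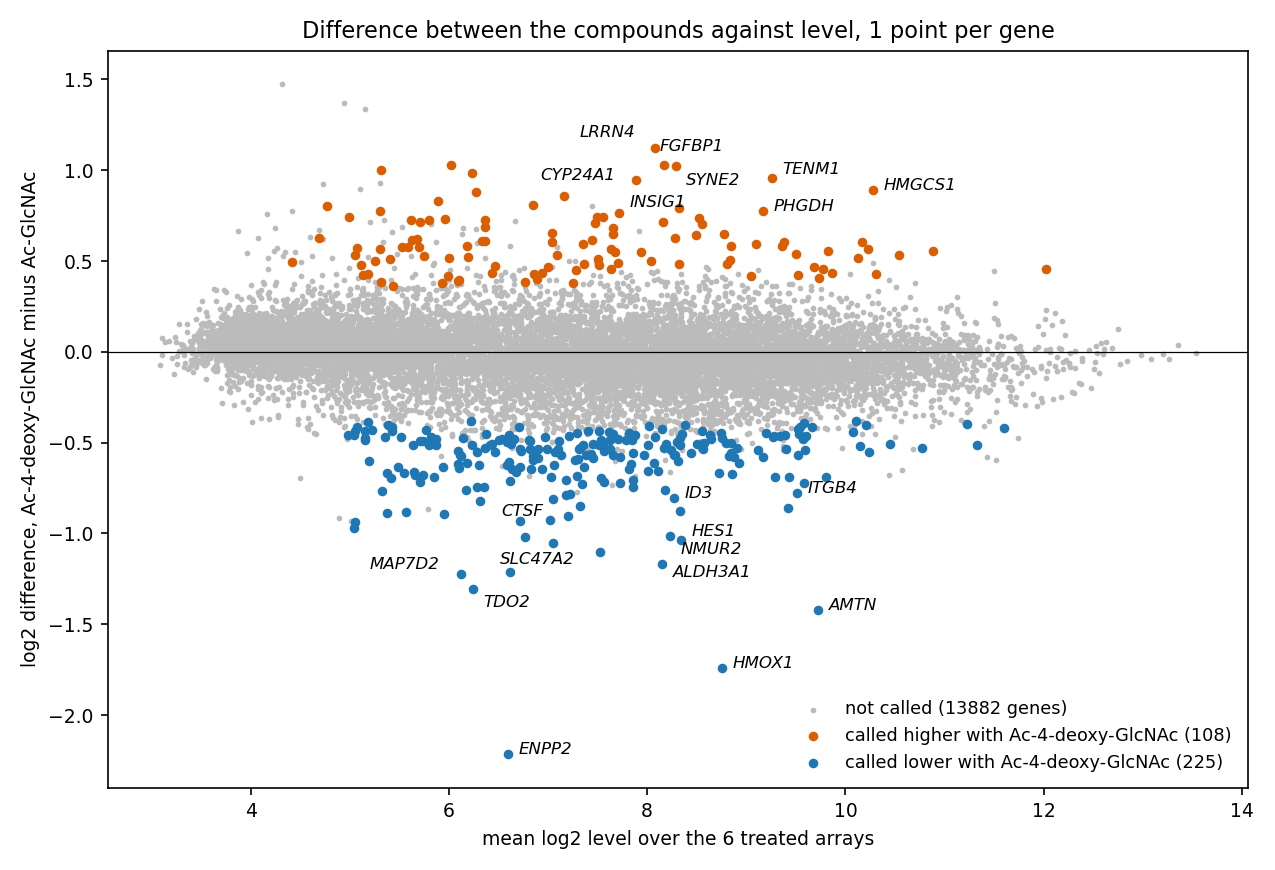
Log2 difference, Ac-4-deoxy-GlcNAc minus Ac-GlcNAc (vertical axis), against the mean log2 level over the 6 treated arrays (horizontal axis), 1 point per gene, with called genes coloured. The 108 genes called higher reach 1.12 (LRRN4) and the 225 called lower reach -2.22 (ENPP2). Few genes at the lowest levels were called.

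The largest difference was in ENPP2, which encodes autotaxin, a secreted enzyme that makes lysophosphatidic acid. Its log2 level was 7.77, 7.66 and 7.68 with Ac-GlcNAc and 5.38, 5.39 and 5.69 with Ac-4-deoxy-GlcNAc. Untreated cells lay between, at 6.56, 6.35 and 6.37, so the compounds moved this gene to opposite sides of the untreated level without any overlap. ENPP2 was 4.65-fold lower with the analog than with Ac-GlcNAc (log2 -2.22, SE 0.11, adjusted p = 2.5e-07). Against the same untreated arrays it was 2.42-fold higher with Ac-GlcNAc (adjusted p = 0.000152) and 1.92-fold lower with the analog (adjusted p = 0.000422). Of the 11 measured genes of the autotaxin and lysophosphatidic acid list, ENPP2 was the 1 called (2.34% of all genes). LPAR1, a receptor for the lipid, had a difference of -0.19 (95% interval -0.39 to 0.01).

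HMOX1, heme oxygenase 1, which degrades heme, had the second largest fall. Its level was 9.75, 9.59 and 9.54 with Ac-GlcNAc, and 7.59, 8.04 and 8.03 with Ac-4-deoxy-GlcNAc. Untreated cells were at 7.70, 7.11 and 7.67, so the Ac-GlcNAc arrays stood above all 6 others while the analog and untreated arrays overlapped. The difference between the compounds was 3.34-fold (log2 -1.74, SE 0.16, adjusted p = 0.000134).

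ALDH3A1, an aldehyde dehydrogenase, and SLC47A2, a proton-coupled exporter of organic cations, were also higher than untreated with Ac-GlcNAc and lower in the direct comparison. ALDH3A1 stood at 8.77, 8.79 and 8.66 with Ac-GlcNAc and 7.37, 7.68 and 7.65 with the analog, a 2.25-fold difference (log2 -1.17, SE 0.11, adjusted p = 0.000134). It was lower with the analog than in untreated cells as well (8.21, 8.01 and 8.09, adjusted p = 0.00861). SLC47A2 stood at 8.004, 8.214 and 8.006 with Ac-GlcNAc and at 6.86, 6.92 and 7.14 with the analog, a 2.14-fold difference. Against untreated cells the fall of SLC47A2 with the analog did not pass (log2 -0.35, adjusted p = 0.0607).

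In a further set of genes both compounds lay below untreated cells and the analog lay lower still. AMTN, which encodes the enamel protein amelotin, was at 11.04, 11.28 and 11.40 in untreated cells, at 10.48, 10.42 and 10.40 with Ac-GlcNAc and at 8.82, 9.05 and 9.17 with Ac-4-deoxy-GlcNAc. The groups did not overlap, and the direct difference was 2.68-fold (log2 -1.42, SE 0.12, adjusted p = 6.41e-05). NMUR2, a receptor for neuromedin U, was at 8.74, 8.60 and 8.86 with Ac-GlcNAc and 7.76, 7.72 and 7.68 with the analog, against 9.27 to 9.49 untreated. Its direct difference was -1.01 (SE 0.10, adjusted p = 0.000204). For AMTN and NMUR2 the fall with Ac-GlcNAc against untreated was itself called, at adjusted p = 0.019 and 0.0211. VSNL1, a calcium sensor protein, and FOXS1, a forkhead transcription factor, differed by -1.02 and -0.93 between the compounds. Against untreated cells with Ac-GlcNAc their differences were -0.43 and -0.39 and did not pass (adjusted p = 0.0843 and 0.105).

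Among the remaining large falls, TDO2, which starts tryptophan breakdown, was at 6.78, 6.73 and 7.17 with Ac-GlcNAc and 5.52, 5.70 and 5.54 with the analog. This was a 2.47-fold difference (log2 -1.30, SE 0.12, adjusted p = 0.000165). Untreated arrays of TDO2 lay between, at 6.55, 6.30 and 6.56, and its rise over them with Ac-GlcNAc did not pass (adjusted p = 0.0939). MAP7D2, a relative of a microtubule-associated protein, fell by 1.22 on the log2 scale, the non-coding transcript C2orf74-DT by 1.21, TCEANC by 0.97 and TACR1, the substance P receptor, by 0.94. Between Ac-GlcNAc and untreated cells C2orf74-DT differed by -0.05 (95% interval -0.25 to 0.16) and TACR1 by -0.02 (-0.31 to 0.27), and neither passed. BBOF1, a protein of motile cilia, fell by 1.05. Its analog arrays were spread over 5.95, 6.73 and 6.89, and it was called in 4 of the 6 fits, not without Ac-GlcNAc replicate 2 or 3 (adjusted p up to 0.0685).

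The largest called rise was in LRRN4, which encodes a leucine-rich repeat membrane protein. It was at 7.72, 7.52 and 7.30 with Ac-GlcNAc and at 8.53, 8.63 and 8.77 with Ac-4-deoxy-GlcNAc, a 2.18-fold difference (log2 1.12, SE 0.11, adjusted p = 0.000241). Ac-GlcNAc and untreated arrays (7.60, 7.51 and 7.48) overlapped. FGFBP1, a secreted carrier that releases fibroblast growth factors from the matrix, was at 7.89, 7.40 and 7.67 with Ac-GlcNAc and 8.56, 9.00 and 8.48 with the analog. These groups did not overlap, and the rise was 2.04-fold (log2 1.03, SE 0.16, adjusted p = 0.00609).

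SYNE2, which links the nucleus to the cytoskeleton, rose by 1.02 (SE 0.15) and TENM1, a teneurin membrane protein, by 0.96 (SE 0.12). SYNE2 varied among the analog arrays, at 9.16, 8.46 and 8.79. CYP24A1, the enzyme that inactivates vitamin D, was at 7.62, 7.28 and 7.35 with Ac-GlcNAc and 8.39, 8.21 and 8.48 with the analog, a 1.92-fold difference (adjusted p = 0.00186). CYP2R1, a vitamin D 25-hydroxylase, differed the other way by -0.61 (adjusted p = 0.0183, called in 2 of the 6 fits, with adjusted p up to 0.0899). The vitamin D receptor VDR had a difference of -0.32 (95% interval -0.53 to -0.12, adjusted p = 0.108). PLAT, tissue plasminogen activator, rose by 0.79 (SE 0.11, adjusted p = 0.00329), and the non-coding LINC00852 by 0.98 (SE 0.12).

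PNPLA3, a lipid droplet lipase, rose by 0.86 (SE 0.12), from 6.74, 6.78 and 6.67 to 7.52, 7.45 and 7.79. PNPLA3 is further named on a probe set of more than 1 gene, as is the kinase RSKR, which rose by 0.81 and was called in 5 of the 6 fits (adjusted p = 0.0609 without Ac-GlcNAc replicate 3). The other large rises rested on fewer arrays. DENND11 (0.88) was called in 3 of the 6 fits, LOC100132356 (1.03), ITGB1BP2 (0.83) and the bitter taste receptor TAS2R10 (0.80) in 2, and FLJ42393 (1.0003) in 1. Against untreated cells DENND11 differed by -0.63 with Ac-GlcNAc and by 0.25 with the analog, and neither passed (adjusted p = 0.0918 and 0.363). Ac-4-deoxy-GlcNAc replicate 1 was the highest analog array for LOC100132356, DENND11, FLJ42393 and TAS2R10. Without it their adjusted p lay above 0.05.

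**Figure D3:**
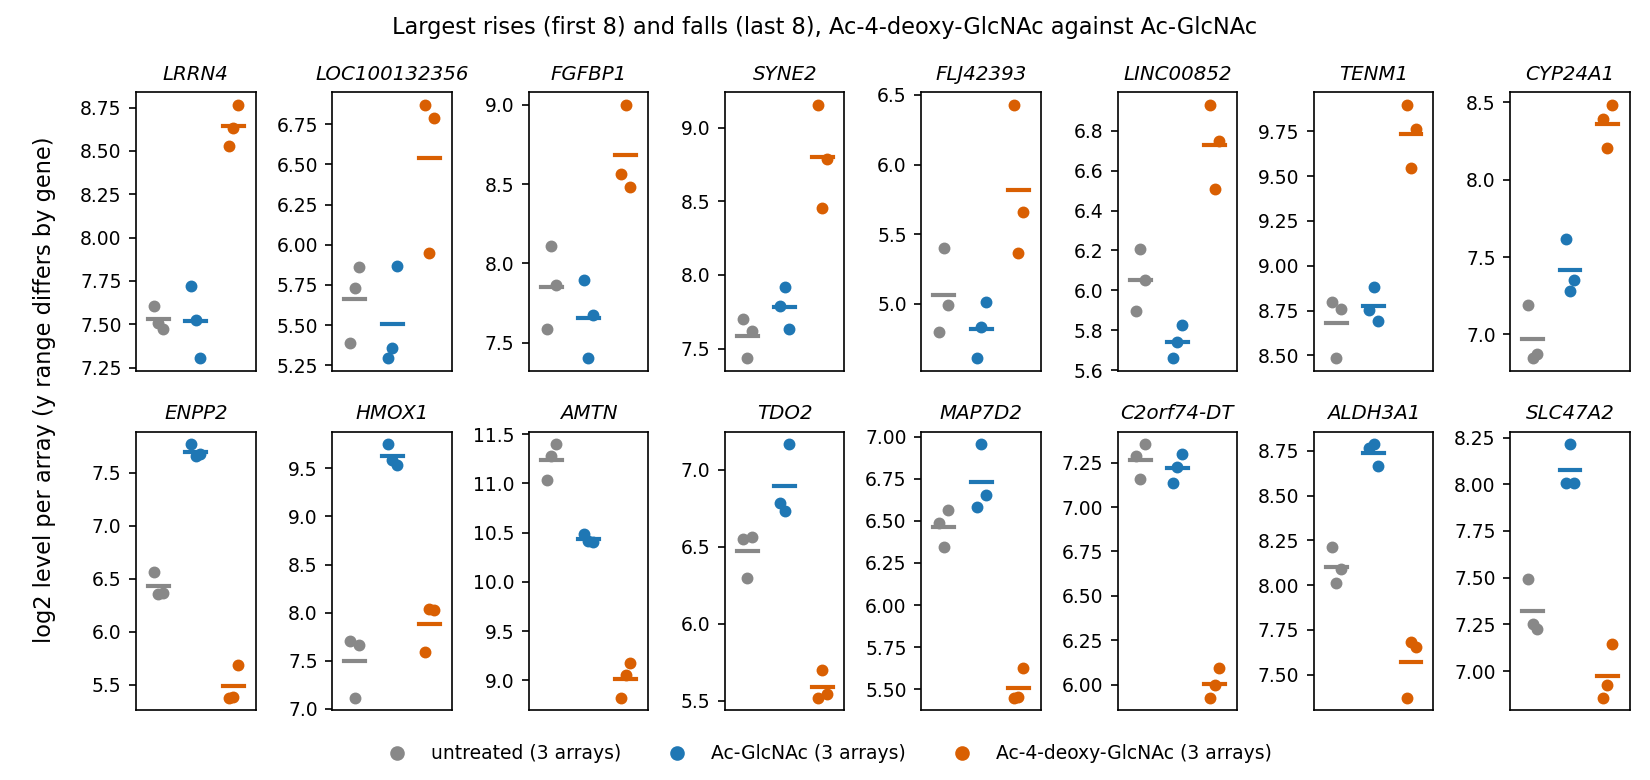
Log2 level on each array (points) with the group mean (bar) for the 8 largest called rises and the 8 largest called falls, in untreated (grey), Ac-GlcNAc (blue) and Ac-4-deoxy-GlcNAc (orange) cells, 3 arrays each. The vertical range differs by gene. ENPP2, ALDH3A1, TDO2, MAP7D2 and SLC47A2 lie on opposite sides of untreated cells with the compounds. Among them, ENPP2 and ALDH3A1 passed against untreated cells with both compounds. The Ac-GlcNAc arrays of HMOX1 stand above all 6 others.

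Of 14 measured cholesterol synthesis genes 8 were called higher with the analog (0.76% of all genes), and 3 had lower point values that did not pass. Cells make cholesterol from acetyl-CoA through mevalonate and squalene, and the genes are switched on together by the SREBP transcription factors when membrane sterol is low. Promoters of this pathway often carry CCAAT boxes, bound by the factor NF-Y beside SREBP. The 300 bases from 250 before to 50 after the start are shown for 4 called genes of the pathway that hold this motif. They are written 5′ to 3′ on the gene's strand, from RefSeq (GRCh38.p14). Capitals mark CCAAT on the gene's strand or ATTGG, the same motif on the other strand.

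HMGCS1 promoter, chr5:43313363-43313662 (- strand): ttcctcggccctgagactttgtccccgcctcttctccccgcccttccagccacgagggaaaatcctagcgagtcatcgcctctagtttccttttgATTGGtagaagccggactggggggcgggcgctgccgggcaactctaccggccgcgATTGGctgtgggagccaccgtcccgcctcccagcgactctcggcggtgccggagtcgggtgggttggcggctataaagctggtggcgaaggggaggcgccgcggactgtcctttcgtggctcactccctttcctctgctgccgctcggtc
MVK promoter, chr12:109573544-109573843 (+ strand): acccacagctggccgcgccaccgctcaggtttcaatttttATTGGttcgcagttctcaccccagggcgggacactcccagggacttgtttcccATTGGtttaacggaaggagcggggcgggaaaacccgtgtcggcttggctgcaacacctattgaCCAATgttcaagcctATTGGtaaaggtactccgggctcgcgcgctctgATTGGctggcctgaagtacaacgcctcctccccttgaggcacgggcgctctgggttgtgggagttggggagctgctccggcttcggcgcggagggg
MVD promoter, chr16:88663042-88663341 (- strand): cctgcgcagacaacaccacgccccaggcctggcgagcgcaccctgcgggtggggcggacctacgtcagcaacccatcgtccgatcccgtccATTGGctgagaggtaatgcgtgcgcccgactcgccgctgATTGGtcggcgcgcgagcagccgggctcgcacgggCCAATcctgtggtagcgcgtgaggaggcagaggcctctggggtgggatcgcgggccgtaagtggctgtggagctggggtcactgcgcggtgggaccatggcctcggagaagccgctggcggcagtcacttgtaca
MSMO1 promoter, chr4:165327419-165327718 (+ strand): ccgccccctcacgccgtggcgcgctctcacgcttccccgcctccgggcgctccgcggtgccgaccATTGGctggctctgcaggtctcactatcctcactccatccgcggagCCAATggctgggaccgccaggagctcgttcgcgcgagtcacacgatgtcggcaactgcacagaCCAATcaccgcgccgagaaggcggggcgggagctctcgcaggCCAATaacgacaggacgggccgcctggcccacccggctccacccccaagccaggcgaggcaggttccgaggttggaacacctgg

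HMGCS1 held 2 CCAAT motifs in this window, 155 and 100 bases before the start, MVD 3, MSMO1 4 and MVK 5. Of 13 measured cholesterol synthesis genes found in the promoter table, 11 (84.6%) held at least 1 CCAAT on either strand, against 36.6% of 11369 measured genes found there. Among the called members found, 6 of 7 held it, and IDI1 held 0. Of members not called, NSDHL held 5 matches, EBP 3 and PMVK 0, so the motif did not set called members apart. A core of the sterol regulatory element, TCACNCCAC on either strand, was in 0 of the 13 and in 1.19% of all. At that share a list of this size holds few matches or none. Other forms of the element were not searched, so its absence is not shown. These are matches of letters in a window, and binding was not measured.

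HMGCS1, which makes the precursor of mevalonate, was at 9.80, 9.79 and 9.90 with Ac-GlcNAc and at 10.78, 10.68 and 10.70 with Ac-4-deoxy-GlcNAc. Untreated arrays were at 9.88, 9.98 and 10.11, so the analog arrays stood above all 6 others. The direct difference was 1.86-fold (log2 0.89, SE 0.09, adjusted p = 0.00033). MVD, the last enzyme before isopentenyl units, was at 7.40, 7.40 and 7.20 with Ac-GlcNAc and 8.04, 7.85 and 8.06 with the analog (log2 0.65, SE 0.10, adjusted p = 0.00511). LSS, which closes the sterol ring system, was at 9.08, 9.16 and 8.96 with Ac-GlcNAc and at 9.63, 9.63 and 9.68 with the analog (log2 0.58, SE 0.10, adjusted p = 0.00668).

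In all, 8 of 14 measured cholesterol synthesis genes were called higher and 0 lower, with a median log2 difference of 0.436, against 0.76% of genes called higher and a median of -0.000617 over all genes. The other called members were MVK (0.62), DHCR7 (0.60), SQLE (0.57), MSMO1 (0.46) and IDI1 (0.42, its symbol also on a shared probe set). HMGCS1, MVD and LSS were called in all 6 fits, SQLE in 2, MVK, DHCR7 and IDI1 in 1 and MSMO1 in 0. The list count fell to 3, 3 and 4 when replicate 1, 2 or 3 of Ac-GlcNAc was dropped, and to 5, 5 and 3 for the same replicates of the analog. It was 7 without both replicate 2 of the untreated arrays and replicate 1 of the analog, and the list median stayed between 0.418 and 0.488. NSDHL (0.38, 95% interval 0.13 to 0.62) and FDPS (0.34, 0.09 to 0.59) did not pass. EBP and SC5D had differences of -0.23 and -0.22, and neither passed (adjusted p = 0.463 and 0.409).

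Sterol sensing genes moved both ways. INSIG1, which retains the SREBP complex in the endoplasmic reticulum and is itself an SREBP target, was at 7.32, 7.28 and 7.40 with Ac-GlcNAc and 8.13, 8.22 and 7.93 with the analog (1.7-fold, log2 0.76, SE 0.12, adjusted p = 0.00469). MYLIP, a ubiquitin ligase that degrades the LDL receptor and is induced by sterols through LXR, was at 7.44, 7.49 and 7.67 and at 6.76, 6.91 and 6.82 (log2 -0.70, SE 0.11, adjusted p = 0.00499). Neither gene's groups overlapped. ABCA1, the cholesterol exporter and another LXR target, differed by -0.50 (adjusted p = 0.0287) but in 0 of the 6 fits. ABCG1, a further LXR target, had a difference of -0.06 (95% interval -0.27 to 0.15) and STARD4, a sterol carrier, of 0.40 (adjusted p = 0.0709). Of the 14 measured members of this list, 1 was higher (0.76% of all genes) and 2 were lower (1.58%).

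Among 15 measured genes that make or desaturate fatty acids, 3 calls were upward (0.76% of all genes) and 0 downward (1.58%), and the median was 0.106. SCD, which puts a double bond into saturated fatty acids, was at 10.61, 10.66 and 10.53 with Ac-GlcNAc and 11.14, 11.21 and 11.12 with the analog (1.47-fold, log2 0.56, SE 0.10, adjusted p = 0.00952). It was called in 5 of the 6 fits, with adjusted p = 0.0517 without Ac-GlcNAc replicate 3. ACACB (0.44), the mitochondrial acetyl-CoA carboxylase, whose product restrains fatty acid oxidation, and FASN (0.42), fatty acid synthase, were called in 1 and 0 of the fits. Dropping replicate 1, 2 or 3 left 1, 1 and 0 calls for Ac-GlcNAc and 1, 2 and 1 for the analog, and dropping untreated replicate 3 left 1. ACLY, which supplies cytosolic acetyl-CoA, had a difference of 0.02 (95% interval -0.19 to 0.22), and ACSS2, which makes acetyl-CoA from acetate, of 0.41 (0.19 to 0.64, adjusted p = 0.0586).

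NRF2 is a transcription factor released under oxidative or electrophilic stress that acts through antioxidant response elements. Of 18 measured NRF2 targets, 4 were lower with the analog than with Ac-GlcNAc and 0 higher, with a median of -0.21, against 1.58% of all genes lower. They were HMOX1, AKR1C3, GCLM and ABCC2. The list mean was 9.269 to 9.437 untreated, 9.867 to 9.91 with Ac-GlcNAc and 9.542 to 9.64 with the analog, which thus lay between. The promoter window of GCLM, which encodes the modifier subunit of the first enzyme of glutathione synthesis, is shown because it holds the core of the element, TGACNNNGC, on the other strand 34 bases before the start (capitals, RefSeq GRCh38.p14).

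GCLM promoter, chr1:93909381-93909680 (- strand): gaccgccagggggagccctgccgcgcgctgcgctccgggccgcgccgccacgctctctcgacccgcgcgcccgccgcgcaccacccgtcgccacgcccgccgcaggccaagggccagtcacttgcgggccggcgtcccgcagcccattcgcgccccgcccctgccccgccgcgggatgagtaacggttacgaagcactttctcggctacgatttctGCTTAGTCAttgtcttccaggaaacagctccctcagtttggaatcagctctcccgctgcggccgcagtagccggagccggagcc

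This core, on either strand, was found in 5 of 14 measured NRF2 targets in the promoter table (35.7%) and in 14.5% of all genes. Of the 3 called targets found there, 1 held it, GCLM. AKR1C3 and ABCC2 held 0 matches, and HMOX1 was not found there. GCLM was at 8.78, 8.76 and 8.95 with Ac-GlcNAc and 8.18, 8.40 and 8.31 with the analog, with untreated cells at 8.21, 8.26 and 8.26. It was thus high with Ac-GlcNAc and overlapped untreated cells with the analog (direct log2 -0.53, SE 0.10, adjusted p = 0.0116, called in 4 of the 6 fits, not without Ac-GlcNAc replicate 3 or Ac-4-deoxy-GlcNAc replicate 1, with adjusted p up to 0.0676). AKR1C3, an aldo-keto reductase with close paralogs that a shared probe set names too, was at 10.48, 10.55 and 10.52 and at 9.98, 9.85 and 10.05 (log2 -0.55, adjusted p = 0.0216, 1 of the 6 fits). ABCC2, an exporter of conjugates, was at 6.80, 6.84 and 6.62 and at 6.23, 6.21 and 6.37 (log2 -0.48, adjusted p = 0.0221, 2 of the 6 fits). Against untreated cells AKR1C3 and ABCC2 were higher with Ac-GlcNAc (log2 0.93 and 0.82). They were also higher with the analog (0.38 and 0.33, adjusted p = 0.0453 and 0.0466).

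Other NRF2 targets had no called difference. TXNRD1, a thioredoxin reductase whose promoter window held 2 matches of the core, was higher than untreated with both compounds, at 9.55, 9.55 and 9.48 with Ac-GlcNAc and 9.63, 9.59 and 9.80 with the analog against 9.04, 8.85 and 9.03. Its direct difference was 0.15 (95% interval -0.06 to 0.36). SLC7A11, the cystine importer, had a direct difference of -0.11 (-0.32 to 0.11) and SRXN1, sulfiredoxin, of -0.10 (-0.32 to 0.13). GCLC, the partner of GCLM, had -0.44 (adjusted p = 0.089) and did not pass. The list count was 1 without Ac-4-deoxy-GlcNAc replicate 1, 2 without Ac-4-deoxy-GlcNAc replicate 2 or any single Ac-GlcNAc replicate, and 4 without both replicate 2 of the untreated arrays and replicate 1 of the analog.

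Heme handling and export overlapped this list. ALAS1, the rate-limiting enzyme of heme synthesis, was at 8.55, 8.40 and 8.58 with Ac-GlcNAc and 7.84, 8.02 and 8.05 with the analog (log2 -0.54, SE 0.10, adjusted p = 0.0105, 3 of the 6 fits, with adjusted p up to 0.0601). With HMOX1 and SLC48A1, a heme transporter (-0.38, 0 of the 6 fits), it made 3 genes called lower. Of 14 measured genes of heme and iron handling, 0 were higher (0.76% of all genes) and these 3 were lower (1.58%). That count was 1 without Ac-GlcNAc replicate 1 or 3 or Ac-4-deoxy-GlcNAc replicate 1, and 2 in the other 3 fits. FTL, the ferritin light chain, had -0.24 (95% interval -0.50 to 0.01). Of 11 export transporters, ABCC2 and ABCC3 (-0.39, 0 of the 6 fits) were lower (1.58% of all genes).

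**Figure D4:**
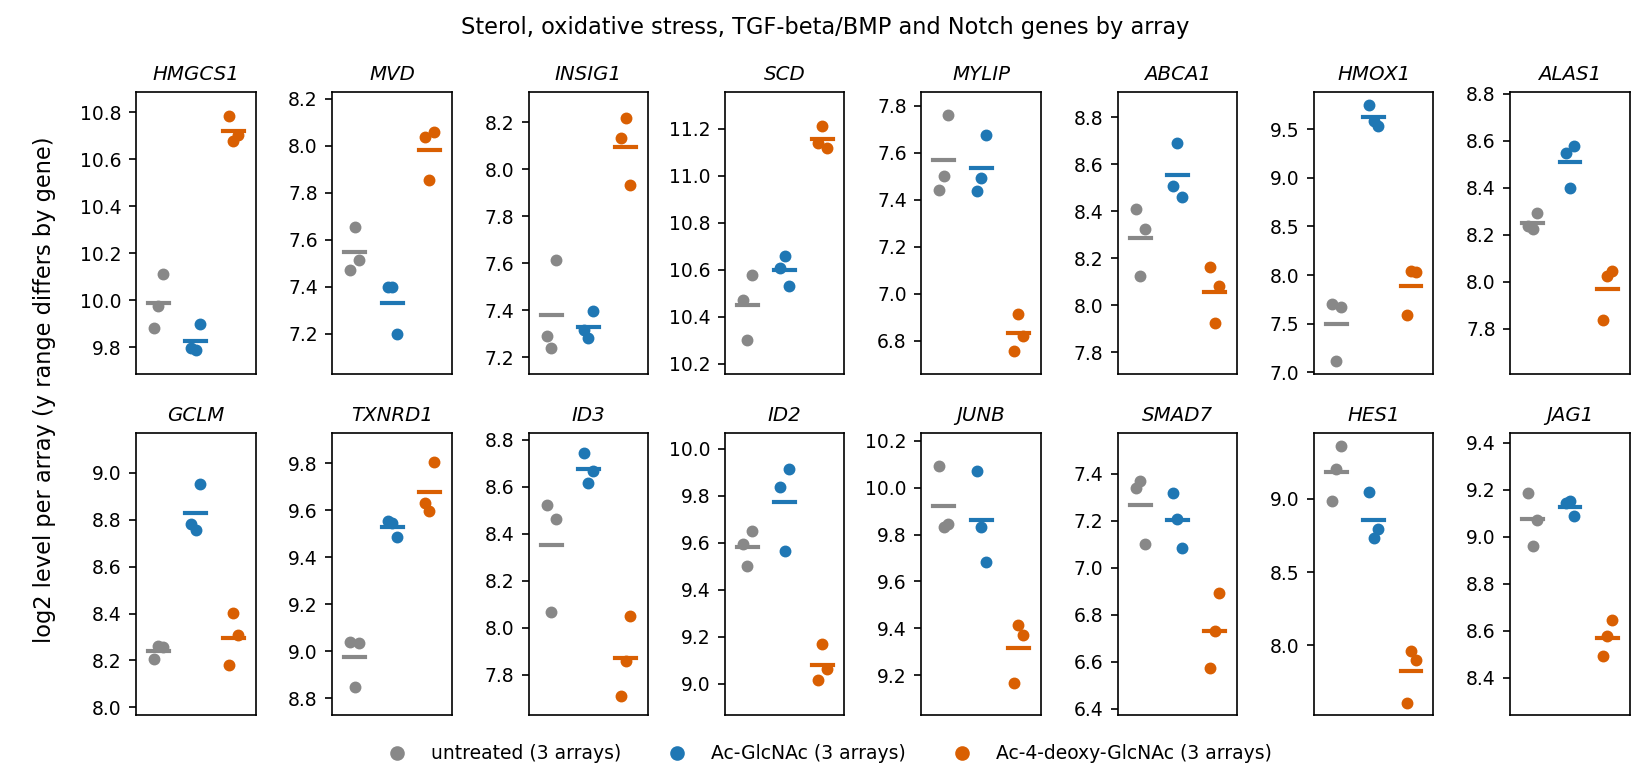
Log2 level on each array (points) with the group mean (bar) for 16 sterol, oxidative stress, TGF-beta or BMP, and Notch genes in untreated (grey), Ac-GlcNAc (blue) and Ac-4-deoxy-GlcNAc (orange) cells, 3 arrays each; the vertical range differs by gene. HMGCS1, MVD, INSIG1 and SCD stand apart upward with the analog, HMOX1 and GCLM upward with Ac-GlcNAc, and TXNRD1 is raised with both.

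TGF-beta and BMP signals reach the nucleus through SMAD proteins, and several of these ligands bind heparan sulfate at the cell surface. Of 21 measured response genes, 7 were lower with the analog (1.58% of all genes) and 0 higher (0.76%), with a median of -0.324. The ID genes are direct BMP targets that inhibit differentiation factors. ID3 was at 8.75, 8.62 and 8.67 with Ac-GlcNAc and at 7.71, 7.86 and 8.05 with the analog (1.75-fold, log2 -0.81, SE 0.13, adjusted p = 0.00559). ID2, which a shared probe set names too, was at 9.84, 9.56 and 9.92 and at 9.01, 9.17 and 9.06 (log2 -0.69, SE 0.11, adjusted p = 0.00507). In both, all analog arrays lay below all Ac-GlcNAc and all untreated arrays, and the call held in all 6 fits. ID1 (-0.37, adjusted p = 0.0629) and ID4 (-0.42, adjusted p = 0.0849) did not pass.

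Of the other called members, COL1A1, a collagen chain, was at 8.80, 8.77 and 8.60 with Ac-GlcNAc and 8.11, 8.12 and 8.26 with the analog (log2 -0.56, adjusted p = 0.00781, 5 of the 6 fits, adjusted p = 0.0525 without Ac-GlcNAc replicate 1). PMEPA1 (-0.54), a feedback inhibitor of TGF-beta signalling, was called in 3 of the fits, JUNB (-0.54), an AP-1 subunit, in 2, and SMAD7 (-0.47), the inhibitory SMAD, and CCN2 (-0.40), a matrix growth factor, in 0. Dropping replicate 1, 2 or 3 left 2, 3 and 5 calls in this list for Ac-GlcNAc, and 3, 5 and 4 for the analog. It was 4 without both replicate 2 of the untreated arrays and replicate 1 of the analog, and the list median stayed between -0.419 and -0.269. Of 33 measured ligands, receptors and inhibitors 1 was called: BMP6 was higher by 0.39 (adjusted p = 0.0433, 0 of the 6 fits). TGFB1 itself had -0.45 (95% interval -0.71 to -0.19, adjusted p = 0.0744), and the receptor BMPR2 0.07 (-0.16 to 0.30).

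In the Notch pathway, membrane ligands release a transcription activator from a neighbouring cell's receptor. Of its 16 measured genes, 2 were lower (1.58% of all genes) and 0 higher (0.76%). HES1, a repressor switched on by Notch, was at 9.05, 8.73 and 8.80 with Ac-GlcNAc and 7.61, 7.96 and 7.90 with the analog (2.05-fold, log2 -1.04, SE 0.13, adjusted p = 0.00116). JAG1, a ligand, was at 9.14, 9.15 and 9.09 and at 8.49, 8.58 and 8.65 (1.47-fold, log2 -0.56, SE 0.09, adjusted p = 0.00798). Both held in all 6 fits with no overlap of arrays. The receptors NOTCH1 and NOTCH3 had differences of -0.00 and 0.05 (95% intervals -0.22 to 0.22 and -0.15 to 0.24), and HEY1, another Notch target, of -0.14 (-0.36 to 0.09).

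Of all genes 2.34% were called. The share was 4.17% in the growth factor and ERK response list, 20% among heparin-binding growth factors and 8.33% among ERBB receptors and ligands. Of 24 genes of the growth factor and ERK response 1 was lower (DUSP5, a phosphatase, log2 -0.45, adjusted p = 0.0389, 1 of the 6 fits). Of 20 heparin-binding growth factors and partners, FGFBP1 was higher, and ANGPTL4 (-0.54), TFPI2 (-0.47) and CCN2 were lower, called in 1, 1 and 0 of the 6 fits. Against untreated cells ANGPTL4 was higher with Ac-GlcNAc (0.66, adjusted p = 0.0429) and did not pass with the analog (0.12, adjusted p = 0.521). TFPI2 and CCN2 were lower than untreated with the analog (adjusted p = 0.044 and 0.036). ERBB3, a receptor for neuregulins, was higher by 0.53 (adjusted p = 0.0108, 4 of the 6 fits, adjusted p up to 0.0588), at 4.77, 4.92 and 4.67 with Ac-GlcNAc and 5.28, 5.35 and 5.33 with the analog. ERBB2, amplified in this cell line, had a difference of -0.07 (95% interval -0.25 to 0.12). IL6 was higher by 0.61 (adjusted p = 0.0256, 2 of the 6 fits).

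Among adhesion, junction and matrix genes the clearest difference was in ITGB4, the integrin subunit of hemidesmosomes. It was at 9.94, 9.99 and 9.79 with Ac-GlcNAc and at 9.06, 9.10 and 9.22 with the analog (1.72-fold, log2 -0.78, SE 0.09, adjusted p = 0.00102), and it was the 1 of 17 measured integrins called. Of 36 collagens and matrix proteins, COL1A1 and SPARC (-0.53, 5 of the 6 fits, adjusted p = 0.0523 without Ac-GlcNAc replicate 3) were lower and FBN2 (0.43, 1 of the fits) higher. MMP2, a gelatinase, differed by -0.46 (1 of the fits) and was the 1 of 21 metalloproteinases and inhibitors called. Of all genes, 2.34% were called. SERPINB5, the serpin maspin, differed by -0.63 (adjusted p = 0.00943, 5 of the fits, adjusted p = 0.0505 without Ac-GlcNAc replicate 1).

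Of 20 epithelial and mesenchymal genes, E-cadherin CDH1 was higher by 0.55 (adjusted p = 0.0112). The tight junction gene CLDN4 (-0.74) and the repressors SNAI1 (-0.66) and SNAI2 (-0.42) were lower. Of all genes, 0.76% were higher and 1.58% lower. CDH1, CLDN4 and SNAI1 were each called in 2 of the 6 fits and SNAI2 in 0, with adjusted p up to 0.0651 (CDH1), 0.0967 (CLDN4), 0.087 (SNAI1) and 0.19 (SNAI2). The lower count of 3 became 0 without Ac-GlcNAc replicate 1 or Ac-4-deoxy-GlcNAc replicate 1, and 1 in the other 4 fits. The mesenchymal filament VIM had -0.10 (95% interval -0.32 to 0.12). Epithelial genes thus stood on both sides.

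**Figure D5:**
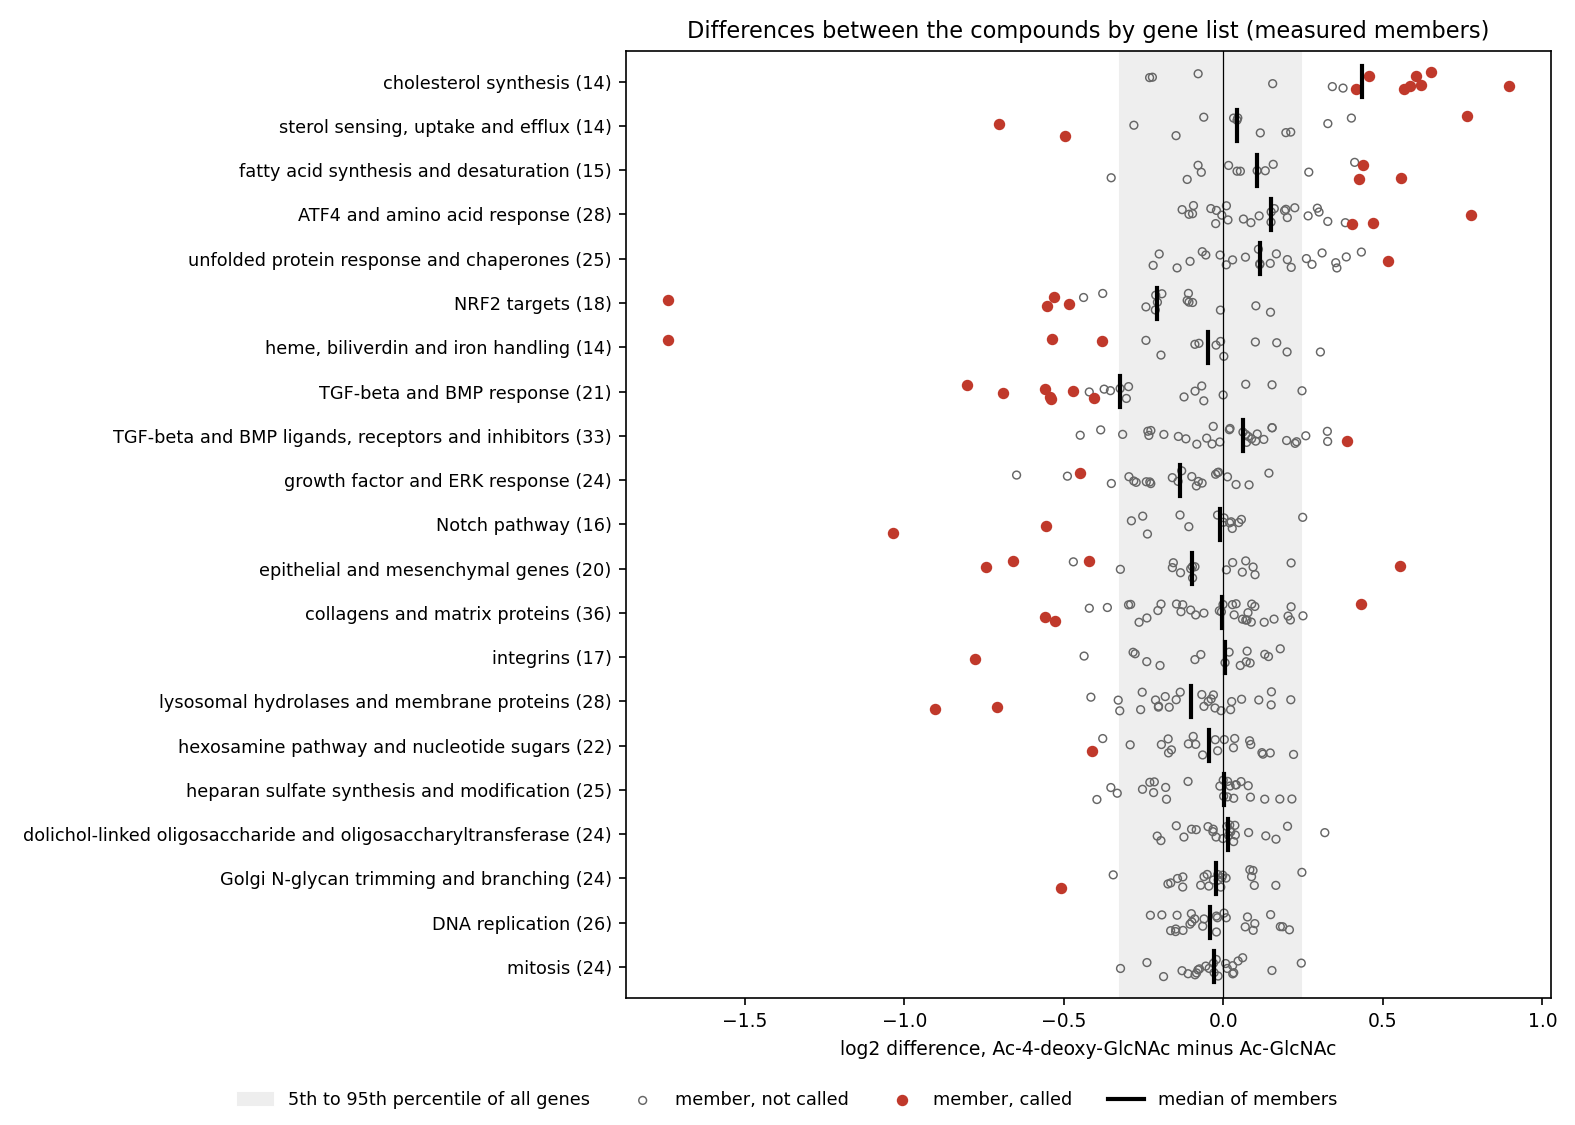
Log2 difference, Ac-4-deoxy-GlcNAc minus Ac-GlcNAc (horizontal axis), of each measured member (points) of the gene lists (rows), with called members coloured and the median marked. Cholesterol synthesis has the highest median of the lists drawn (0.436) and TGF-beta and BMP response the lowest (-0.324). Heparan sulfate synthesis is centred at 0.00075 with 0 of 25 members called, where 2.34% of all genes were called.

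Few genes that build or read glycans were called, but of all genes 2.34% were called. At that share, lists of this size hold few calls or none. Of 25 measured genes of heparan sulfate synthesis and modification 0 were called (median 0.00075), nor of 12 core proteins, 20 chondroitin, dermatan and hyaluronan genes, or 24 genes of the dolichol pathway and oligosaccharyltransferase. EXT1, a polymerase of heparan sulfate, had a difference of 0.18 (95% interval -0.02 to 0.38) and NDST1, its first sulfotransferase, of 0.01 (-0.18 to 0.20). The smallest p in the list belonged to B3GALT6 (-0.35, -0.56 to -0.14, adjusted p = 0.0829), an enzyme of the linkage to the core protein. SDC1, syndecan 1, had -0.34 (-0.56 to -0.13, adjusted p = 0.102).

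In the hexosamine pathway and nucleotide sugar list, 1 of 22 measured genes was called (2.34% of all genes). NAGK, the kinase that phosphorylates free GlcNAc, was at 9.78, 9.76 and 9.72 with Ac-GlcNAc and 9.21, 9.44 and 9.37 with the analog (1.33-fold, log2 -0.41, SE 0.10, adjusted p = 0.0451). The groups did not overlap, but the call held in 1 of the 6 fits (adjusted p up to 0.218). GFPT1, which sets the flux into the pathway, had -0.11 (95% interval -0.33 to 0.11), and UAP1, which makes UDP-GlcNAc, -0.03 (-0.27 to 0.22).

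OGA, which removes O-GlcNAc from proteins, was higher with the analog, at 8.96, 9.08 and 9.37 against 8.48, 8.63 and 8.57 with Ac-GlcNAc (1.5-fold, log2 0.58, SE 0.14, adjusted p = 0.0404). It lay at 8.41, 7.88 and 8.10 in untreated cells, so the order was untreated, Ac-GlcNAc, analog. The step from untreated to Ac-GlcNAc did not pass (adjusted p = 0.102), and the direct call was lost in all 6 fits (adjusted p 0.057 to 0.153). OGT, which adds the mark, had a direct difference of 0.36 (95% interval 0.16 to 0.57, adjusted p = 0.067).

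In the Golgi, MAN1B1, a mannosidase of glycoprotein quality control, differed by -0.51 (adjusted p = 0.0233) and ST6GALNAC2, a sialyltransferase of mucin-type glycans, by -0.46 (adjusted p = 0.0229). Each was called in 2 of the 6 fits, and they were the 1 called of 24 and of 23 genes in their lists. The branching enzyme MGAT1 had -0.05 (-0.25 to 0.16), and 0 of 5 galectins were called. The cathepsins CTSF and CTSO, proteases of the lysosome, were lower with the analog. CTSF was at 7.68, 7.80 and 7.49 with Ac-GlcNAc and at 6.48, 6.83 and 6.94 with the analog (1.87-fold, log2 -0.91, SE 0.13, adjusted p = 0.00329). CTSO was at 6.94, 6.88 and 7.10 and at 6.18, 6.39 and 6.23 (1.64-fold, log2 -0.71, SE 0.11, adjusted p = 0.00519). They were the 2 called of 28 lysosomal genes (2.34% of all genes), in all 6 fits.

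Among 28 targets of ATF4 and amino acid shortage, 3 calls were upward (0.76% of all genes) and 0 downward (1.58%), and the median was 0.149. PHGDH, the first enzyme of serine synthesis, was at 8.77, 8.73 and 8.84 with Ac-GlcNAc and at 9.52, 9.63 and 9.52 with the analog (1.71-fold, log2 0.78, SE 0.09, adjusted p = 0.00076). Its call held in all 6 fits, each with 1 call in the list, while the glycine transporter SLC6A9 (0.47) and PCK2 (0.40), a mitochondrial enzyme of gluconeogenesis, were called in 0. The next serine enzyme PSAT1 had 0.15 (95% interval -0.11 to 0.41), ATF4 0.06 (-0.23 to 0.36) and the stress factor DDIT3 0.01 (-0.28 to 0.31). WARS1, tryptophanyl-tRNA synthetase, was the 1 called of 17 cytosolic synthetases (0.45, adjusted p = 0.0455, 1 of the 6 fits). HYOU1, an endoplasmic reticulum chaperone, was the 1 called of 25 genes of the unfolded protein response (0.52, adjusted p = 0.0178, 2 of the fits), and HSPA5 had 0.21 (-0.03 to 0.45). Of 15 heat shock genes, DNAJB4 was lower (-0.63, adjusted p = 0.0366, 2 of the fits).

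Growth and housekeeping lists held few or no calls, where 2.34% of all genes were called. None of 26 DNA replication genes, 24 mitosis genes, 23 glycolysis and hypoxia genes, 12 glucose-sensing genes, 25 interferon-stimulated genes, 24 proteasome subunits or 27 complex I subunits were called, and of 15 p53 targets 1 was, TP53I3 (-0.38, adjusted p = 0.0458, 0 of the 6 fits). The proliferation marker MKI67 had 0.24 (95% interval 0.02 to 0.47) and MCM5 0.21 (-0.02 to 0.43). The glucose-responsive TXNIP had -0.33 (-0.55 to -0.10, adjusted p = 0.134). KDR, an endothelial receptor, was called higher by 0.36 (adjusted p = 0.0497, 0 of the 6 fits), the called gene nearest the threshold. COL1A2 (-0.42) and INSR (0.40), both at adjusted p = 0.0502, were nearest outside it.

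A last group moved against untreated cells without a called difference between the compounds. With either compound 359 genes differed from untreated by at least 1.5-fold at an adjusted p under 0.05, where 0.359% of genes were called at any size with Ac-GlcNAc and 11% with Ac-4-deoxy-GlcNAc. The direct difference was called for 140 of them and not for 219, of which 125 had a 95% interval within 1.5-fold. Both contrasts with untreated cells share the untreated arrays. Of genes that passed at this size, 341 (2.4%) did so with the analog and 36 (0.253%) with Ac-GlcNAc, so a lack of a direct call does not show that the compounds act alike.

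The 10 with the narrowest direct intervals included TXNRD1, above, and MUC1, a membrane mucin. MUC1 was at 8.32, 8.56 and 8.53 untreated, 7.92, 7.95 and 7.89 with Ac-GlcNAc and 7.73, 7.79 and 7.74 with the analog. Both treated groups lay below untreated, and the direct difference was -0.17 (95% interval -0.37 to 0.04). RASGRP3, a Ras activator, fell against untreated with Ac-GlcNAc (-0.63, adjusted p = 0.0223) and with the analog (-0.73, adjusted p = 0.00118), with a direct difference of -0.10 (-0.31 to 0.11). IGFBP5, a binding protein of insulin-like growth factors, gave -0.49 and -0.60 against untreated and -0.11 (-0.32 to 0.10) directly. OLFML2B gave -0.51 and -0.90 against untreated, and its direct difference of -0.39 lay just outside the threshold (adjusted p = 0.0554). Among the rises, CBS, which makes cystathionine, gave 0.46 (adjusted p = 0.0542) and 0.85 (adjusted p = 0.000422) against untreated, and 0.38 directly (0.17 to 0.59, adjusted p = 0.0575). DYNC1H1, ZNF217, BMS1 and FOXP2 had direct differences of 0.38, 0.22, 0.30 and -0.27, and passed against untreated with the analog but not with Ac-GlcNAc.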

How the data were processed

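Total RNA was measured on 9 Affymetrix exon arrays, 3 per group. The authors deposited gene-level log2 values, made by RMA in Partek on hg18 per the submitters' processing notes; versions and settings are not given in the sources used here. RMA compresses differences at low levels. Values were used as deposited. A model with group as its only term was fitted to all 9 arrays and 17859 probe sets with limma 3.58.1 (R 4.3.3; lmFit, eBayes), and p-values were adjusted by Benjamini-Hochberg across every probe set, with calls under 0.05. The script was tested on simulated data, where 71% of 1.5-fold and 97% of 2-fold changes were recovered for this comparison (200 changed of 17859). In it 6 unchanged probe sets were called. The simulated noise was independent and alike on all arrays, whereas estimated weights of the real arrays ran from 0.241 to 2.89. The recovery is thus a check of the script and not the power in these data. The number of arrays limits the precision. Each gene was read from its probe set with the highest mean over 9 arrays. Probe sets were named from the platform annotation, which can be old, and symbols on probe sets of several genes were marked.

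Named genes were the 15 largest called rises and falls without array overlap, up to 4 called members (or the 2 smallest p) and the defining members of each list, and the 10 narrowest intervals among genes changed only against untreated cells. Further list members, the remaining called ones included, were picked with their values in view. The comparison and the 48 lists (872 of 1052 entries measured) were chosen with earlier results of these data known.

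Alternatives were a replicate block, the 6 treated arrays alone, other normalizations, level filters, moderation settings, array weights, a 1.5-fold minimum and leaving out each array. A fit without both replicate 2 of the untreated arrays and replicate 1 of the analog was added after seeing the data. Promoter windows came from RefSeq (GRCh38.p14), and files and windows differ in build, so no array coordinate was used.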

Additional observations from a re-analysis of the deposited data

How the results depend on the processing

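The direction of the 341 called probe sets turned in 0 cases under any alternative, and lower calls outnumbered higher ones in each. Only the other normalizations and the array SD covariate could have turned it, as the arrays of the compounds did not overlap on these probe sets. The counts moved by more than 1.5 times with array weights, to 952 (310 higher, 642 lower), and with a 1.5-fold minimum, to 137 (52 higher, 85 lower). The higher count rose to 193 with cyclic loess, and the lower count to 346 above the 25th percentile of level. Leaving out 1 array at a time gave 107 to 533 called, 36 to 175 higher and 69 to 358 lower. The share called higher, 33.1%, was 41.7% with median centring, 41.6% without Ac-4-deoxy-GlcNAc replicate 2 and 25.4% above the 50th percentile. The remaining counts lay within 1.5 times. The causes were not tested.

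Replicate numbers did not pair the arrays of the 2 compounds. The correlations of the deviations of same-numbered Ac-GlcNAc and Ac-4-deoxy-GlcNAc arrays from their group means were -0.0632, -0.0816 and -0.11. With untreated arrays of the same number they were 0.142, 0.0499 and 0.369 for Ac-GlcNAc and -0.245, 0.0481 and 0.14 for the analog. With the replicate number as a block 332 were called (109 higher, 223 lower), 299 of them among the 341.

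Among the named genes, LGALS2, a galectin with a difference of 0.06 that was not called, turned sign to -0.00717 with array SD as a covariate, to -0.03865 without Ac-GlcNAc replicate 3 and to -0.003702 without Ac-4-deoxy-GlcNAc replicate 2, over a range of -0.03865 to 0.1675 with 1 array left out. Signal over background was not analysed here, so how far low levels limit the calls was not tested.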

Other observations

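The genes and lists here were chosen after their values were seen, so their counts are descriptions. Several called genes outside the lists above held in all 6 fits that left out 1 treated array. GAL3ST1, the sulfotransferase that makes sulfatide, was at 6.86, 6.81 and 6.51 with Ac-GlcNAc and 5.77, 5.98 and 5.97 with the analog (log2 -0.82, adjusted p = 0.00333). TMEM175, a lysosomal ion channel, differed by -0.78 (adjusted p = 0.00102), and complement C3 by -0.69 (adjusted p = 0.00367). RAP1GAP, which switches off the small GTPase Rap1, differed by -0.81, and CD52, a small surface glycoprotein, by -0.89. The epithelial sodium channel subunit SCNN1A (0.73) and the complement receptor C5AR1 (0.71) were higher with the analog.

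Of 63 measured genes of very large proteins, 11 were called higher with Ac-4-deoxy-GlcNAc and 0 lower (0.76% and 1.58% of all genes). The point value was higher for 55 and lower for 8, with a median of 0.139. They included SYNE2, FRAS1 (0.74), the ribosome assembly factor MDN1 (0.71) and the histone methyltransferase KMT2D (0.65). Ac-4-deoxy-GlcNAc replicate 1 was the highest of the 3 analog arrays for 44 of the 63 and for 11 of the 11 called, against 31.7% of all genes, and without it 3 were called. Not all of the called genes named here therefore held in each of the 6 fits, and their numbers of fits are not given. MACF1, not called, was at 8.86, 7.68 and 8.21 on the analog arrays. The part of RNA quality in this was not tested.

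Of 53 measured cilium genes, 9 were called lower and 0 higher (1.58% and 0.76% of all genes), with a median of -0.173. DRC9, of the dynein regulatory complex, differed by -0.74 and was called in 6 of the 6 fits, KIFAP3, a kinesin subunit of ciliary transport, by -0.56 (1 fit) and BBS12 by -0.51 (2 fits). Ac-4-deoxy-GlcNAc replicate 1 was the lowest analog array for 23 of the 53 and for 7 of the 9 called, against 37.2% of all genes. The count ran from 2 to 7 over the 6 fits and was 2 without that array.

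The largest point rises were not called. The bitter taste receptor TAS2R4 was at 6.91, 3.53 and 4.73 with the analog and 3.62, 3.56 and 3.57 with Ac-GlcNAc (log2 1.47, adjusted p = 0.213). TAS2R20 (1.37, adjusted p = 0.0574) and the receptor GPR21 (1.34, adjusted p = 0.0581) were also highest on Ac-4-deoxy-GlcNAc replicate 1. Of 1041 probe sets with no gene name, 31 were called (2.98%), 23 higher and 8 lower with the analog.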
